A study of Homo sapiens with 6 samples.

Results

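The genes described here are 8 long noncoding RNA genes that host small nucleolar RNAs (snoRNAs): GAS5, SNHG1, SNHG3, SNHG5, SNHG6, SNHG7, SNHG8 and SNHG12. They were taken by name, and the rule itself uses no measured value although earlier results of these data were known when the list was drawn up, out of 23284 gene symbols in the expression tables. All 8 were found, and all 8 passed the filter on low values together with 11126 other genes, since each had a mean above 1 FPKM (fragments per kilobase of transcript, scaled to the mapped reads) in at least 1 group. The annotation gives each of them as a long noncoding RNA.

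The samples came from GM12873, a B-lymphoblastoid line, that is, B cells of a single donor immortalised with Epstein-Barr virus. Control cells were washed and lysed directly in Trizol, in 3 samples, and lyophilized cells were freeze-dried in PBS with 0.1 M trehalose, a protective sugar, and kept for 2 weeks at room temperature before the same lysis, in 3 samples. The labels pair each lyophilized sample with 1 control, which gives 3 pairs, and no other treatment or genotype separates the groups. Poly(A)-selected RNA was sequenced as single reads of 75 bases, to ask how well freeze-dried cells keep their transcripts. The labels do not say that the pairs were grown separately, so p-values measure only the spread between these samples, and in bulk RNA fewer cells with a transcript cannot be told apart from less transcript per cell.

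SnoRNAs guide chemical changes of ribosomal RNA, with the box C/D class directing ribose methylation and the H/ACA class pseudouridylation. In humans most are cut from introns after splicing, and the host gene decides how much precursor is made. In the genes described here the introns carry the snoRNAs while the spliced exons hold no conserved protein. Several of these host transcripts start with the pyrimidine-rich 5′ end (5′TOP) known from ribosomal protein mRNAs, and spliced transcripts such as that of GAS5 are broken down during translation by nonsense-mediated decay. GAS5 is best known as a transcript that gathers in growth-arrested cells.

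The first bases of 7 of the host transcripts are shown because the start is the feature they are known to share with ribosomal protein genes. Each window is read from GRCh37, the build of the tables (hg19), on the strand of the gene, and holds 20 bases before and 30 bases after the 5′ end of the gene's locus in the tables. Capitals mark the longest run of C and T within 10 bases on either side of that end. In SNHG7 the run is cut at that limit and goes on upstream.
GAS5: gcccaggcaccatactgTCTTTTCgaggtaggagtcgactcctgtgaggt
SNHG5: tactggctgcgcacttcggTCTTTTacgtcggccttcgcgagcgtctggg
SNHG7: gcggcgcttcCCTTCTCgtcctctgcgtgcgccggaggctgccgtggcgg
SNHG8: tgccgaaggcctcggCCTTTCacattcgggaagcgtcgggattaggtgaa
SNHG1: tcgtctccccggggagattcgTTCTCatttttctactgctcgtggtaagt
SNHG3: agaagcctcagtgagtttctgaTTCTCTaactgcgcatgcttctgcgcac
SNHG12: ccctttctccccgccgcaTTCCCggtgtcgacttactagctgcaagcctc
In genome coordinates these windows are chr1:173837096-173837145, chr6:86388422-86388471, chr9:139622607-139622656, chr11:62623331-62623380 and chr1:28908337-28908386 on the minus strand, and chr4:119199897-119199946 and chr1:28832435-28832484 on the plus strand. A C followed directly by at least 4 bases that are each C or T was present within 10 bases of the start in 5 of the 8 genes (62.5%): GAS5, SNHG5, SNHG6, SNHG7 and SNHG8. The same search, on the transcribed strand only, found it in 25.3% of 10743 tested genes with a transcript in the annotation, in 47.6% of 42 protein-coding snoRNA hosts and in 3 of 10 other noncoding hosts. SNHG1, SNHG3 and SNHG12 lacked it within these 10 bases, where their longest runs were of 5, 6 and 5 bases. The printed sequences of SNHG1 and SNHG12 hold such a stretch further upstream. A match describes letters at an annotated end, which was not measured in these libraries.

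The snoRNAs themselves lie in the introns of these genes. The tables hold 28 snoRNA records inside the loci of 7 of the hosts: 10 in GAS5, 8 in SNHG1, 4 in SNHG12, 2 each in SNHG5 and SNHG7, and 1 each in SNHG6 and SNHG8. All 28 fall within introns of the host transcripts used here, and no snoRNA record lies inside SNHG3. The sequences below show the records detected in all samples other than SNORA44. Beside them stand 1 shorter than a read and 1 close to a read in length. Capitals mark matches to box C (ATGATGA or GTGATGA, within the first 20 bases), box D (CTGA, starting within the last 15 bases) or the ACA box (ACA, starting within the last 10 bases), read on the strand of the host.
SNORD47: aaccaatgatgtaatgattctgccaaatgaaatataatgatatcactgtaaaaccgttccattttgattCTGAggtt
SNORD76: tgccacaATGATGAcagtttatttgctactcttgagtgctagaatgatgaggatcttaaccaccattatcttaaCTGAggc
SNORD44: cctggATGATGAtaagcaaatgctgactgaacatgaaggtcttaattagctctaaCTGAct
SNORD22: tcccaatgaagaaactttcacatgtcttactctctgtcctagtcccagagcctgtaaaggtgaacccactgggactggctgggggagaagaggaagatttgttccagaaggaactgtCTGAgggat
SNORD50A: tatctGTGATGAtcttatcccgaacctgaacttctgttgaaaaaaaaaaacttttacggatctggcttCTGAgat
SNORA24: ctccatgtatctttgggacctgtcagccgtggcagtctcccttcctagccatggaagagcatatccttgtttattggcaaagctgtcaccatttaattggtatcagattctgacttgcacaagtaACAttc
SNORA61: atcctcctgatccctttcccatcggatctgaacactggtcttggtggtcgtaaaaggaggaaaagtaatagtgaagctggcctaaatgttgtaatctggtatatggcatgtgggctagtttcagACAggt
SNORD47 (chr1:173833507-173833583), SNORD76 (chr1:173835773-173835853) and SNORD44 (chr1:173835106-173835166) belong to GAS5. SNORD22 (chr11:62620382-62620507) belongs to SNHG1 and SNORD50A (chr6:86387012-86387086) to SNHG5, all on the minus strand of GRCh37. SNORA24 (chr4:119200345-119200475, plus strand) is the H/ACA snoRNA of SNHG8, and SNORA61 (chr1:28906276-28906405, minus strand) is one of those in SNHG12. Of the 21 box C/D records whose sequence was read, 12 held both boxes in these strict spellings, and none of the 21 windows of equal length directly upstream did. Of the 6 H/ACA records, 5 held the ACA box and SNORA44 did not, and 2 of 6 upstream windows held it.

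What the tables showed of a snoRNA differed with the length of its record. The 13 records shorter than the 75-base read, from 43 to 72 bases long, were listed at 0 in every sample, as SNORD44 was at 61 bases. Of the 15 records as long as a read or longer, 6 were above 0.001 FPKM in all 6 samples: SNORD47, SNORD76, SNORD22, SNORA24, SNORA61 and SNORA44. SNORA43 and SNORA17 were never at exactly 0 but fell below that floor in 2 samples each. The same split held over all snoRNA and scaRNA records of the tables, where 1 of 107 shorter records and 185 of 321 longer ones were above the same floor in at least 1 sample. A 0 in a record shorter than a read was not taken as a measure of the snoRNA, and the cause of the split was not tested.

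**Figure D1:**
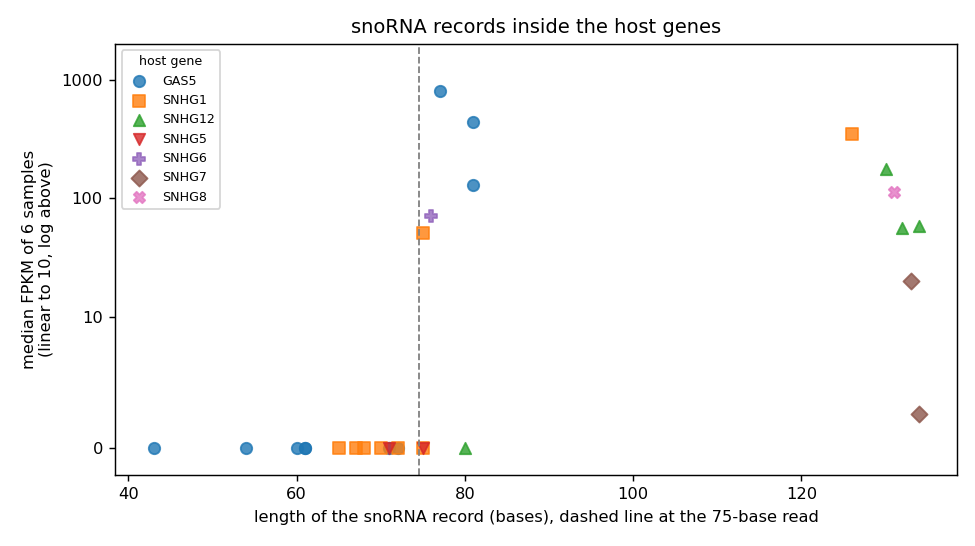
Median FPKM over the 6 samples (vertical axis, linear to 10 and logarithmic above) against record length in bases (horizontal axis) for the 28 snoRNA records inside the host genes, with 1 symbol per host. All 13 records left of the dashed line, which marks the 75-base read, lie at 0.

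For the shortest of these records an FPKM value can rest on few reads. SNORD47 in GAS5 was at 176.7, 933, and 673 FPKM in controls 1 to 3 and at 452, 979 and 1177 FPKM in the lyophilized samples. The steps between the low values of short records put these at 2, 15 and 13 reads in the controls and at 10, 21 and 21 in the lyophilized samples, so a single read moved the value by a large amount. The groups overlapped, and control 1, with the fewest reads, was the lowest. SNORD22 in SNHG1 was at 273, 459 and 389.7 FPKM in the controls and at 225, 372 and 321 FPKM in the lyophilized samples. It was lower after lyophilization in all pairs, with groups that overlapped. SNORA24 in SNHG8 was at 79.0, 114 and 33.8 FPKM in the controls and at 112, 146 and 132 FPKM after lyophilization, higher in every pair with overlapping groups. SnoRNAs lack a poly(A) tail and the kit selects for it, and reads in these records cannot be told apart from reads of unspliced host RNA. They were left out of the tests.

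In their level the 8 genes ranged from moderate to among the highest in these cells. SNHG8 had the highest mean over the 6 samples, 399 FPKM, which placed it 150th among the 11134 genes tested. SNHG6 followed at 211 FPKM, GAS5 at 186 FPKM and SNHG1 at 104 FPKM. SNHG5 was at 52.4, SNHG3 at 37.7, SNHG12 at 30.2 and SNHG7 at 26.6 FPKM, and SNHG7, the lowest, was 2670th of the tested genes. SNHG8 exceeded SNHG6, GAS5 exceeded SNHG1 and SNHG1 exceeded SNHG5 in 6 of 6 samples. The other neighbours changed places in at least 1 sample: SNHG6 was above GAS5, SNHG5 above SNHG3 and SNHG3 above SNHG12 in 5 of 6, and SNHG12 above SNHG7 in 4 of 6. Together the 8 genes made up between 0.187% and 0.239% of a sample's summed FPKM.

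**Figure D2:**
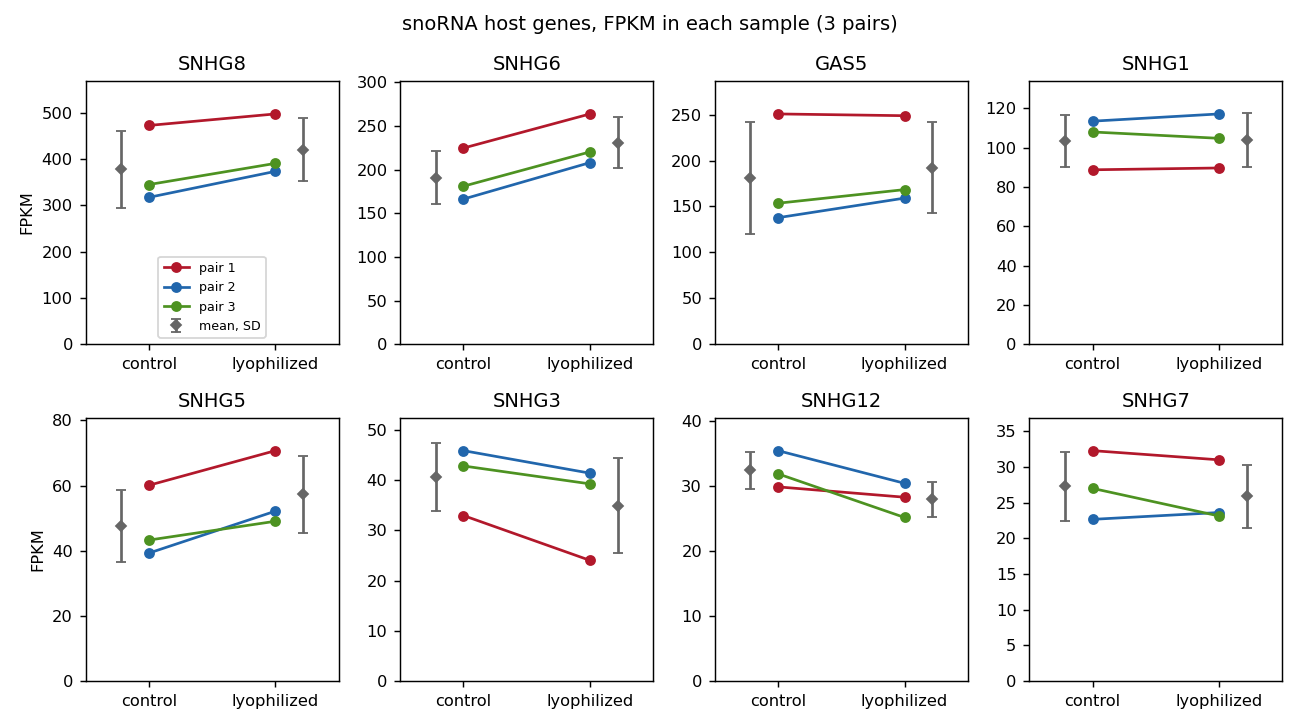
FPKM of each host gene (vertical axes, from 0) in the control and lyophilized samples, with the samples of a pair joined by a line and the group mean and SD (n = 3) as grey diamonds and bars. The lines of a gene run nearly level compared with the distance between pair 1 and the other pairs in GAS5, and in no gene do the control and lyophilized values separate.

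The main comparison asked whether the level of each gene differed between control and lyophilized cells. Without the pairing, limma called 64 of 11134 genes (0.575%) at an adjusted p under 0.05, and 0 of the 8 host genes. No member had an unadjusted p under 0.05, and the lowest adjusted p among them was 0.443, for SNHG6. In no member were the control and lyophilized values apart, against 22.2% of all tested genes. With the pair as a block, which the labels call for, limma called 3423 genes (30.7%), with 15.9% of tested genes higher and 14.9% lower after lyophilization. Of the host genes 3 were then called higher, SNHG6, SNHG5 and SNHG8, and 2 lower, SNHG3 and SNHG12. These were also the genes that moved 1 way in all 3 pairs, as 33.4% of tested genes did upward and 28.8% downward. GAS5, SNHG1 and SNHG7 were not called. Without the variance trend, the block called 14.8% of genes and SNHG6 alone among the members. The fold changes were small in each case, and all are given on the scale of FPKM + 0.1.

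**Figure D3:**
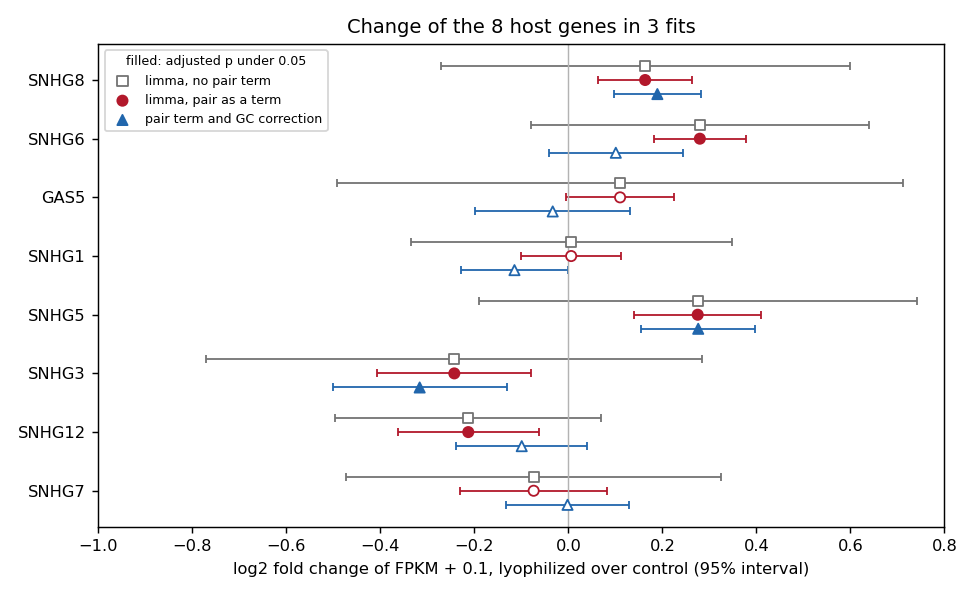
Log2 fold change of FPKM + 0.1 (horizontal axis, lyophilized over control, bars are 95% intervals, n = 3 pairs) for the 8 host genes in 3 limma fits, with filled symbols at an adjusted p under 0.05. No symbol is filled without the pair term, 5 are filled with it, and SNHG5, SNHG8 and SNHG3 are filled after the GC correction too.

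SNHG6 and SNHG5 showed the largest rises with the block. SNHG6 (chr8:67834165-67837777, minus strand, 4 exons) hosts SNORD87 and was at 224.5, 166 and 181 FPKM in controls 1 to 3. Its lyophilized samples were at 264, 208 and 220.2 FPKM. Every lyophilized sample was above its own control, yet the highest control lay above the lower lyophilized samples. The fold was 1.21 (95% interval 1.13 to 1.30 with the block), at an adjusted p of 0.00245 with limma and the block. SNHG6 has the lowest GC content of the 8 transcripts, 42.6%, and after the correction for GC its log2 fold change was 0.10 with an adjusted p of 0.30 in limma, so the call was lost.

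SNHG5 (chr6:86386725-86388451, minus strand, 6 exons) hosts SNORD50A and SNORD50B and was at 60.1, 39.2 and 43.2 FPKM in the controls. After lyophilization it was at 70.7, 52.1 and 49.0 FPKM. It rose in every pair, and the control of pair 1 exceeded the lyophilized samples of pairs 2 and 3. The fold was 1.21 (1.10 to 1.33), at an adjusted p of 0.00997 in limma with the block and of 0.0116 after the GC correction. Correcting for transcript length as well left a log2 fold change of 0.16 and an adjusted p of 0.0707 in limma. Of the 75-base stretches of its transcript, 8.28% occur elsewhere in the genome, the highest share among the members, and the authors kept reads with a single place only.

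SNHG8 (chr4:119199917-119200978, plus strand, 4 exons), the host of SNORA24, was at 472, 317 and 345 FPKM in the controls. The lyophilized samples were at 497, 373 and 390.5 FPKM. Each pair moved up, by least in pair 1, and the groups overlapped. The fold was 1.12 (1.04 to 1.20), at an adjusted p of 0.0237 in limma with the block and 0.0177 after the GC correction. The call depended on scale and on pair 3, without which the adjusted p in limma with the block was 0.171. With the block, the adjusted p in limma was 0.0976 when samples were scaled to the same sum, 0.0750 at the same median and 0.367 after quantile normalization. The log2 fold change was 0.0030 with GC and length corrected together.

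The 2 members called lower, SNHG3 and SNHG12, both lie on chromosome 1. SNHG3 (chr1:28832455-28837404, plus strand, 3 exons) is known as the host of the H/ACA snoRNA U17. It was at 33.0, 45.9 and 42.9 FPKM in the controls and at 24.0, 41.4 and 39.3 FPKM in the lyophilized samples. It fell in every pair, most in pair 1, where the ratio was 0.729 against 0.902 and 0.917 in pairs 2 and 3. The fold was 0.845 (0.754 to 0.947), at an adjusted p of 0.0333 in limma with the block and 0.0319 after the GC correction. Without pair 1 its log2 fold change was -0.14 with an adjusted p of 0.271 in limma with the block, so the call rests on that pair. The whole SNHG3 locus lies inside the record of RCC1, which encodes the nucleotide exchange factor of the GTPase Ran and runs on the same strand from the same first base. The transcripts used here share 242 exon bases of the 2201 of SNHG3, and reads within these shared bases cannot be told apart. RCC1 was at 39.0, 52.8 and 53.2 FPKM in the controls and at 38.8, 58.4 and 54.1 FPKM in the lyophilized samples. Its log2 fold change was 0.05 with an adjusted p of 0.477 in limma with the block. After the GC correction RCC1 was called higher, at 0.15 with an adjusted p of 0.0397 in limma.

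SNHG12 (chr1:28905050-28908366, minus strand, 6 exons) carries SNORD99 and the H/ACA snoRNAs SNORA61, SNORA44 and SNORA16A. Its controls were at 29.9, 35.4 and 31.9 FPKM and its lyophilized samples at 28.3, 30.4 and 25.2 FPKM. All 3 pairs moved down, and only the lowest control fell within the lyophilized range. The fold was 0.863 (0.777 to 0.957), at an adjusted p of 0.0384 in limma with the block. SNHG12 has the highest GC content of the 8, 54.7%, and after the GC correction its log2 fold change was -0.10 with an adjusted p of 0.297 in limma. With length corrected as well it was -0.29, at an adjusted p of 0.0320 in limma. Leaving out pair 3 gave -0.15 and an adjusted p of 0.386 with the block in limma. Its locus overlaps by 8 bases that of TRNAU1AP, a gene for a selenocysteine tRNA-associated protein on the other strand, which lay between 9.59 and 11.8 FPKM in the 6 samples. GAS5, SNHG6 and SNHG7 each overlap another record by 41, 119 and 125 bases (LOC100506046, C8orf45 and FAM69B), none of which exceeded 1.07 FPKM in any sample.

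The 3 members that were not called were GAS5, SNHG1 and SNHG7. GAS5 (chr1:173833039-173837125, minus strand, 12 exons), which hosts 10 snoRNA records, was at 251, 138 and 154 FPKM in the controls and at 249, 159 and 168 FPKM in the lyophilized samples. It was almost level in pair 1 and higher after lyophilization in the other pairs. The fold was 1.08 (0.996 to 1.17), at an adjusted p of 0.127 in limma with the block, and the interval leaves room for a rise of up to 1.17-fold. Among its controls alone the highest value was 1.82 times the lowest, the widest control spread of the 8 genes. Of its 75-base stretches 7.31% occur elsewhere in the genome.

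SNHG1 (chr11:62619460-62623360, minus strand, 12 exons), which carries SNORD22 and SNORD25 to SNORD31, had the fold nearest to 1 on the deposited scale, with and without the block. It was at 88.7, 113 and 108 FPKM in the controls and at 89.7, 117 and 105 FPKM in the lyophilized samples. The ratios of the pairs lay between 0.970 and 1.03, and the fold was 1.00 (0.933 to 1.08), at an adjusted p of 0.935 in limma with the block. After the GC correction its log2 fold change was -0.11, at an adjusted p of 0.149 in limma. SNHG7 (chr9:139619046-139622636, minus strand, 5 exons), the host of SNORA43 and SNORA17, was at 32.3, 22.7 and 27.0 FPKM in the controls and at 31.0, 23.6 and 23.1 FPKM after lyophilization. It was lower in 2 pairs and higher in pair 2. The fold was 0.950 (0.852 to 1.06), at an adjusted p of 0.432 in limma with the block.

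GC content moved with the fold change across the transcriptome, with a Spearman correlation of -0.758 over 10743 genes of the same 6 libraries. The transcripts of the members ran from 42.6% GC in SNHG6 to 54.7% in SNHG12, around the median of 48.9% over these genes. After GC was corrected with the block, limma called 18.3% of genes and 3 members, SNHG5 and SNHG8 higher and SNHG3 lower. After GC and length were corrected it called 7.34% of genes and 2 members, SNHG3 and SNHG12, both lower. SNHG3 was called lower with the block alone and with both corrections. The median transcript over these genes was 2832 bases, and the members ran from 528 bases in SNHG8 to 2201 bases in SNHG3.

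The samples of pair 1 stood apart from those of the other pairs in most of the members, which was noticed after the values were seen. Both samples of pair 1 lay above all 4 samples of pairs 2 and 3 in 5 of 8 genes, GAS5, SNHG5, SNHG6, SNHG7 and SNHG8, where 13.7% of all tested genes did so. They lay below all 4 in SNHG1 and SNHG3, 2 of 8 genes, against 26.0% of tested genes. SNHG12 lay between. The ratio of control 1 to the mean of controls 2 and 3 was 1.72 in GAS5, 1.46 in SNHG5, 1.43 in SNHG8, 1.30 in SNHG7 and 1.29 in SNHG6. The lyophilized samples gave 1.52, 1.40, 1.30, 1.33 and 1.23 for the same genes. SNHG1 and SNHG3 went the other way, at 0.801 and 0.743 among the controls and at 0.808 and 0.596 among the lyophilized samples. The deviation of pair 1 was thus present in both groups. The steps of the low values put the depth of the lyophilized sample at 1.93, 1.33 and 0.923 times that of its control in pairs 1 to 3, and the part of depth in the pattern was not tested.

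**Figure D4:**
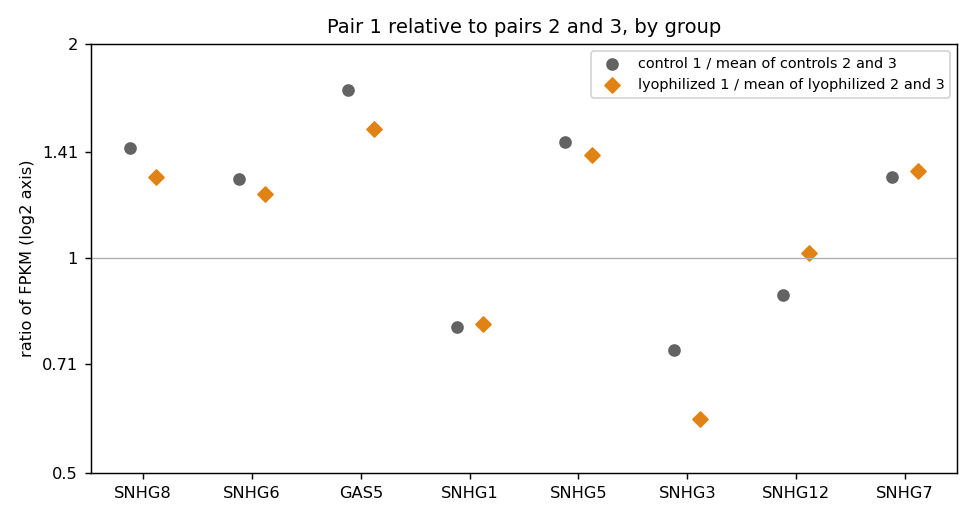
Ratio of the FPKM in pair 1 to the mean of pairs 2 and 3 (vertical axis, log2 scale) for the 8 host genes, among the controls (grey circles) and among the lyophilized samples (orange diamonds). GAS5, SNHG5, SNHG6, SNHG7 and SNHG8 lie above 1 in both groups, and SNHG1 and SNHG3 below 1.

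The 5 genes highest in pair 1 were the 5 with a C followed by 4 or more pyrimidines within 10 bases of the start. This too was noticed after the values were seen. The split depends on that limit, since SNHG1 and SNHG12 held such a stretch further upstream. Among the protein-coding hosts, pair 1 was above all other samples in 13 of 20 genes with the motif (65.0%) and in 14 of 22 without it (63.6%). Over all tested genes with a transcript the shares were 16.0% with it and 13.1% without. The part of the motif in the pattern of the members was not tested.

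Other genes around the snoRNA system were counted from lists to set the members in place. The list of 21 other noncoding hosts had 10 members in the tables, all tested. None was called without the block. With it, limma called 2 higher and 1 lower. C17orf76-AS1, now SNHG29, had the highest level, 831 ± 202 FPKM in controls and 947 ± 183 FPKM in lyophilized cells (SD, n = 3), a log2 fold change of 0.20 at an adjusted p of 0.00765 in limma with the block. ZNFX1-AS1, now ZFAS1, rose from 185 ± 60.6 to 226 ± 69.5 FPKM (SD, n = 3), by 0.30 on the log2 scale at an adjusted p of 0.00188 in limma with the block. SNHG10, named because it made up the count, fell from 5.17 ± 1.11 to 4.12 ± 1.25 FPKM (SD, n = 3), by 0.35 at an adjusted p of 0.0469 in limma with the block. These counts lie near the shares of all tested genes called higher (15.9%) and lower (14.9%). After the GC correction 3 were higher and 2 lower, where limma called 1089 of 10743 genes higher and 876 lower.

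The protein-coding hosts that were called were all higher. Of 42 genes, mostly of ribosomal proteins and translation factors, limma with the block called 25 higher and 0 lower, where 15.9% of all tested genes were higher, 17 were not called, 4 of the 42 had a log2 fold change below 0, and 0 were called without the block. Their median log2 fold change was 0.16, against 0.06 for the 8 members and 0.04 for all tested genes. After the GC correction 15 were higher and none lower, where limma called 1089 of 10743 genes higher and 876 lower. The highest of them were TPT1, a translationally controlled protein, and RPLP2, a protein of the ribosomal stalk. In limma with the block, TPT1 had a log2 fold change of 0.19 at an adjusted p of 0.00454, and RPLP2 one of -0.03 at 0.591. After the GC correction TPT1 was at 0.038 with an adjusted p of 0.654 in limma, so its call was lost. RPLP2 was then called higher, at 0.14 with an adjusted p of 0.0404 in limma. In pair 1, 27 of the 42 lay above all samples of the other pairs and 7 below, against 13.7% and 26.0% of all tested genes. The difference between these hosts and the noncoding ones was not tested.

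The 19 snoRNP proteins and assembly factors include NOP56 and DKC1, which are also snoRNA hosts and stand in both lists. Over all tested genes, limma with the block called 15.9% higher and 14.9% lower. Of these 19 genes it called 3 higher, near the share of all genes, and 0 lower. These were NOP58, a core box C/D protein (log2 fold change 0.34), NOP10, a core H/ACA protein (0.14), and RPAP3, an assembly cofactor (0.41), of which NOP58 and RPAP3 are named because they made up the count. After the GC correction none of these 3 was called (adjusted p of 0.118, 0.222 and 0.487 in limma), and the list had 5 genes called higher and 0 lower. Over all genes that fit called 1089 of 10743 higher and 876 lower. Fibrillarin (FBL), the box C/D methyltransferase, was at 306 ± 18.4 FPKM in controls and 300.5 ± 8.34 FPKM in lyophilized cells (SD, n = 3), at an adjusted p of 0.742 in limma with the block. After the GC correction it was called higher, with a log2 fold change of 0.14 at an adjusted p of 0.0361 in limma. In pair 1, 12 of the 19 lay below all samples of the other pairs and 1 above, against 26.0% and 13.7% of all tested genes. Below was thus the commoner direction over all genes too. The difference from the protein-coding hosts was not tested.

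Nonsense-mediated decay breaks down several of the spliced host transcripts. Of 15 factors, limma with the block called 3 higher, UPF2 (0.40), NCBP1 (0.32) and MAGOH (0.23), and 5 lower, UPF1 (-0.41), SMG6 (-0.33), SMG9 (-0.32), SMG5 (-0.31) and CASC3 (-0.22), given as log2 fold changes and named because they made up the counts. UPF1 is the helicase at the core of the pathway. EIF4A3, a core protein of the exon junction complex and the highest of the list, was at 51.9 ± 10.2 and 52.8 ± 11.7 FPKM (SD, n = 3). Over all tested genes, limma with the block called 15.9% higher and 14.9% lower. None of the 15 was called without the block. After the GC correction 0 were higher and 3 lower, where limma called 1089 of 10743 genes higher and 876 lower.

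Noncoding RNAs without snoRNAs were also called in both directions. Of 13 tested, limma with the block called 4 higher and 1 lower, where 15.9% and 14.9% of all tested genes were. RMRP, the RNA of the RNase MRP enzyme, was the list's highest along with MIR155HG, the precursor of miR-155, and both rose, by 0.77 and 0.20 on the log2 scale. RPPH1 (0.84) and TERC (0.49), the RNAs of RNase P and telomerase, completed the higher ones and NEAT1, the RNA of paraspeckles, was lower (-0.79), the last 3 named because they made up the counts. RMRP, RPPH1 and TERC carry no usual poly(A) tail, so that their recovery in a poly(A) library is indirect. After the GC correction the list had 2 genes called higher and 2 lower, where limma called 1089 of 10743 genes higher and 876 lower. MIR155HG was then at -0.082 on the log2 scale with an adjusted p of 0.550 in limma. RPPH1 was not tested in that fit, which takes only genes with a matched transcript.

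**Figure D5:**
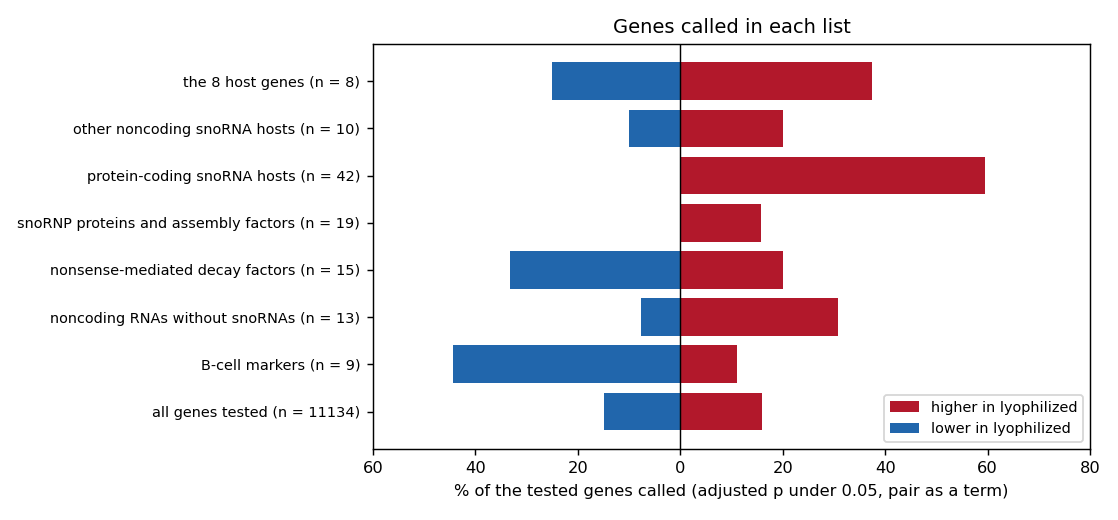
Share of the tested genes of each list called higher (right) or lower (left) in lyophilized cells by limma with the pair as a block (horizontal axis, %, n tested in brackets). The 8 host genes were called in both directions, the 42 protein-coding hosts in the higher direction only, and 15.9% and 14.9% of all genes were called higher and lower.

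As a check of the cells, 9 of 9 B-cell markers passed the filter, among them FCER2 at 481 ± 146 FPKM and MS4A1 at 296 ± 36.6 FPKM in controls (SD, n = 3). None of the 9 was called without the block. With it limma called 1 higher, MS4A1, and 4 lower, FCER2 among them, where 15.9% and 14.9% of all tested genes were. After the GC correction neither MS4A1 nor FCER2 was called (adjusted p of 0.472 and 0.717 in limma). Of 13 markers of other blood and tissue cells, 1 passed, NKG7, at 5.47 ± 1.16 FPKM in controls, and the sum of all 13 lay between 5.24 and 7.39 FPKM in controls and between 5.41 and 8.58 FPKM in lyophilized cells.

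Over the 6 samples the mean of the members' centred log2 values was highest in both samples of pair 1. It was 0.12, -0.12 and -0.06 in controls 1 to 3 and 0.12, -0.0043 and -0.054 in the lyophilized samples. The 5 other genes whose pattern was most like it were EGLN3, GUK1, C11orf10, C20orf111 and C15orf57, with Pearson r from 0.995 to 0.998 over 6 samples of 3 pairs, as a description. In all, 409 of 11126 genes had an r above 0.9. The mean includes SNHG1 and SNHG3, which went the other way in pair 1. EGLN3, an oxygen-sensing prolyl hydroxylase, ranged only from 19.3 to 20.6 FPKM, while C11orf10 ranged from 295 to 451 FPKM.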

How the data were processed

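RNA-Seq was analysed for 3 control and 3 lyophilized GM12873 samples. Per the labels, libraries were prepared with TruSeq v2 (poly(A) selection, without strand) and read on a NextSeq 500. The authors mapped reads to hg19 with TopHat2 2.0.7 (CASAVA 1.4 before it), keeping reads with a single place, and deposited FPKM values from Cufflinks, whose version and annotation are not given in the sources used here. Each table held 24934 records, and samples summed to between 468790 and 524744 FPKM. The tables hold FPKM and no counts. In small RNA records of 94 bases, of snoRNAs or other classes, all values above 0 were whole multiples (tolerance 0.05 reads) of the smallest. That value was taken as 1 read and gave relative depths and the reads behind short records. No interval or floor from counts was computed.

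The members and lists were chosen with earlier results of these data known. Symbols listed at several loci (543) were reduced to the record with the highest mean, 1622 small RNA symbols were left out, and the 11134 genes with a mean above 1 FPKM in a group were fitted on log2(FPKM + 0.1) with limma 3.58.1 in R 4.3.3 (mean-variance trend, two-sided, Benjamini-Hochberg over all genes, threshold 0.05), with the condition only, as in the study's unpaired test. A second fit had the pair as a block. The labels name the partner of each sample, and the deviations of partners from their group means correlated over 11134 genes at 0.716, 0.603 and 0.476 in pairs 1 to 3. Sample by sample, a loess trend (span 0.3, degree 2) on transcript GC content, or on GC and log2 length, was removed before the blocked fit in 2 more versions (10743 genes with a GENCODE transcript on GRCh37). Only the fits without a GC correction, with and without the block, were tested on simulated data, which held no GC trend. Stretches of 75 bases of each member were searched on both strands of GRCh37. Alternatives covered the pseudocount, filters, scaling, variance trend, block, corrections, records, small RNAs and samples left out. The text names the members, the 2 highest genes of each list, genes overlapping a member, snoRNA records inside them and the 5 genes most like their mean. SNHG6 and its snoRNA are described without sequence.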

Additional observations from a re-analysis of the deposited data

How the results depend on the processing

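Without the block, none of the 8 genes was called in any alternative, and the lowest unadjusted p of a member was under 0.05 only without control 1 (2 members). The count over all genes went from 64 to 0 with no filter on low values, where 2069 had an unadjusted p under 0.05, and to 0 in each of the 6 runs that left out a sample, where 885 to 2110 had one. Pairing moved the counts. With the replicate block limma called 3423 genes and 5 members, with the GC correction 1965 and 3, and with GC and length 788 and 2. Alternatives with the block chosen after seeing the data gave 2827 genes and 4 members at the same summed FPKM, 3674 and 4 at the same median, 3510 and 4 with quantile normalization and 1649 and 1 without the variance trend. With the block, leaving out pair 1, 2 or 3 gave 2205, 5355 and 1257 genes and 4, 5 and 3 members. The cause of these moves was not tested.

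Of 208 log2 fold changes of members, 153 kept their direction and side of the threshold, 35 moved past it and 20 reversed. SNHG5, SNHG6, SNHG8 and SNHG12 kept their direction in all 26 alternatives. SNHG1 reversed in 12, at -0.063, -0.0023 and -0.046 with samples scaled to the same sum, the same median or quantiles (the same with the block), at -0.11 and -0.15 with the block and the GC or GC and length correction, at -0.014 with the block and without pair 2, and in 3 of the 6 runs without a sample, which ranged from -0.10 to 0.11. GAS5 reversed in 4, at -0.033 and -0.069 with those corrections and in 2 of the runs without a sample, which ranged from -0.092 to 0.37. SNHG7 reversed in 3, at 0.00044 with the block and without pair 3, and in 2 of the runs without a sample, which ranged from -0.21 to 0.054. SNHG3 reversed without lyophilized 1, at 0.0054, in runs that ranged from -0.39 to 0.0054. All 16 group levels of the members moved by less than 1 SD when samples were scaled to the same sum. The tables hold no read counts, so the precision that depth allows was not computed for these genes.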
